A study of Homo sapiens with 6 samples.

Results

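RAD23B, SPOP, SMOC1, ARF3, RHOA, PBX2, TAF15, TRAM1, GGCX and STK16 are 10 genes that a microarray reads through several probe sets, and in these arrays the probe sets of a gene did not move together. The genes were selected on measured values, namely the unequal differences of their probe sets between the 2 groups compared here. Those differences are therefore given as a description, without a test. Every probe set annotated to one of these genes alone was taken, which gave 10 of the 19775 genes named on the array and 33 of its 54613 probe sets other than controls. A probe set was kept in the fit where 3 or more of the 6 arrays read it above their own median, and 29 of the 33 were. The 4 others, 1 each of RAD23B, RHOA, PBX2 and TAF15, were dim.

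Total RNA came from NCI-H292, a human lung cancer line with mucoepidermoid features, carrying a stable transfection. In the CT45A1 overexpression group the cells carried CT45A1, a cancer/testis antigen, joined to the fluorescent protein Venus, and in the CT45A1 negative group they carried the Venus vector, so both groups carry Venus through a stable transfection. Each group had 3 arrays, and the labels do not say whether these were separate cultures or which clones were used, so errors measure the spread between arrays, which may be technical. Each array reads RNA of a whole culture, so fewer cells with a transcript and less of it per cell cannot be told apart. Values are MAS5 signals, a linear intensity of each probe set, and every difference is overexpression minus negative on the log2 scale. The pair of CT45 probe sets had signals of 154 to 700.1 on the overexpression arrays and 1.95 to 36.3 on the negative ones, each probe set being annotated to 9 CT45 genes. At the brightest probe set of each gene, the epithelial markers EPCAM, CDH1, KRT8, KRT18, KRT19 and KRT7 had signals of 3720 to 29200. Of the probe sets of KRT19 1 of 2 was kept, and of those of KRT7 3 of 4. In contrast, PTPRC, CD3E, VWF, MYH11, SFTPC and the lung factor NKX2-1 had no probe set kept. CD14 and PECAM1 had kept probe sets, with signals of up to 240.0 and 202 at the brightest. The ratio of actin control probe sets at the 3' end to those at the 5' end, a readout of how intact and fully copied the RNA was, was 1.42 to 1.55 on the overexpression arrays and 1.64 to 1.91 on the negative ones, and the GAPDH ratio was 0.969 to 1.04 and 1.05 to 1.18. The log2 array median was on average 0.145 higher in the overexpression group, and centring each array on it turned 522 probe sets called higher and 370 called lower into 387 and 2588.

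A probe set is a group of short probes against one stretch of a transcript, usually near its 3' end, and a gene can have several because its transcripts end at different polyadenylation sites or splice differently. The suffix of its name says how far its probes are shared. A plain _at marks probes found in a single transcript, _a_at probes common to alternative transcripts of one gene, and _s_at probes common to several transcripts, which can belong to one gene or to relatives. Probe sets of a gene can therefore read different transcripts. The probe sequences were not used here, so the stretch that each probe set reads is not given.

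Among the 29 probe sets kept, 15 end in _s_at, 13 in _at and 1 in _a_at, and the 4 dim ones all end in _at. At an adjusted p under 0.05 in limma, 11 of the 29 were called, 4 higher and 7 lower with CT45A1, where 3.23% of all 27618 probe sets kept were called, 1.89% higher and 1.34% lower. The arrays of the groups did not overlap at 17 of the 29, against 26.6% of all probe sets kept. Since the genes were selected on this contrast, nothing is read from those counts, nor from the calls and p-values of the members given below. Each gene had at least 1 called probe set beside at least 1 that was not called. Over the whole array the 892 calls became 159 without overexpression replicate 2 and 1171 without negative replicate 3, and among the 29 the 11 became 7 and 6 without overexpression replicate 1 or 2, 4 with the actin ratio as a covariate and 0 without limma's variance trend, where 5042 of all probe sets kept had an unadjusted p under 0.05. The median absolute difference was 0.33 over the 29 and 0.17 over all probe sets kept, and the median signed difference was 0.024 and 0.033. None of the 10 genes had probe sets called in both directions in limma, although PBX2, SMOC1 and TAF15 had an unadjusted p under 0.05 in both. On the whole array 119 genes had that, and 2 of the 6035 genes with at least 2 probe sets kept, or 0.0331%, were called in both directions.

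**Figure D1:**
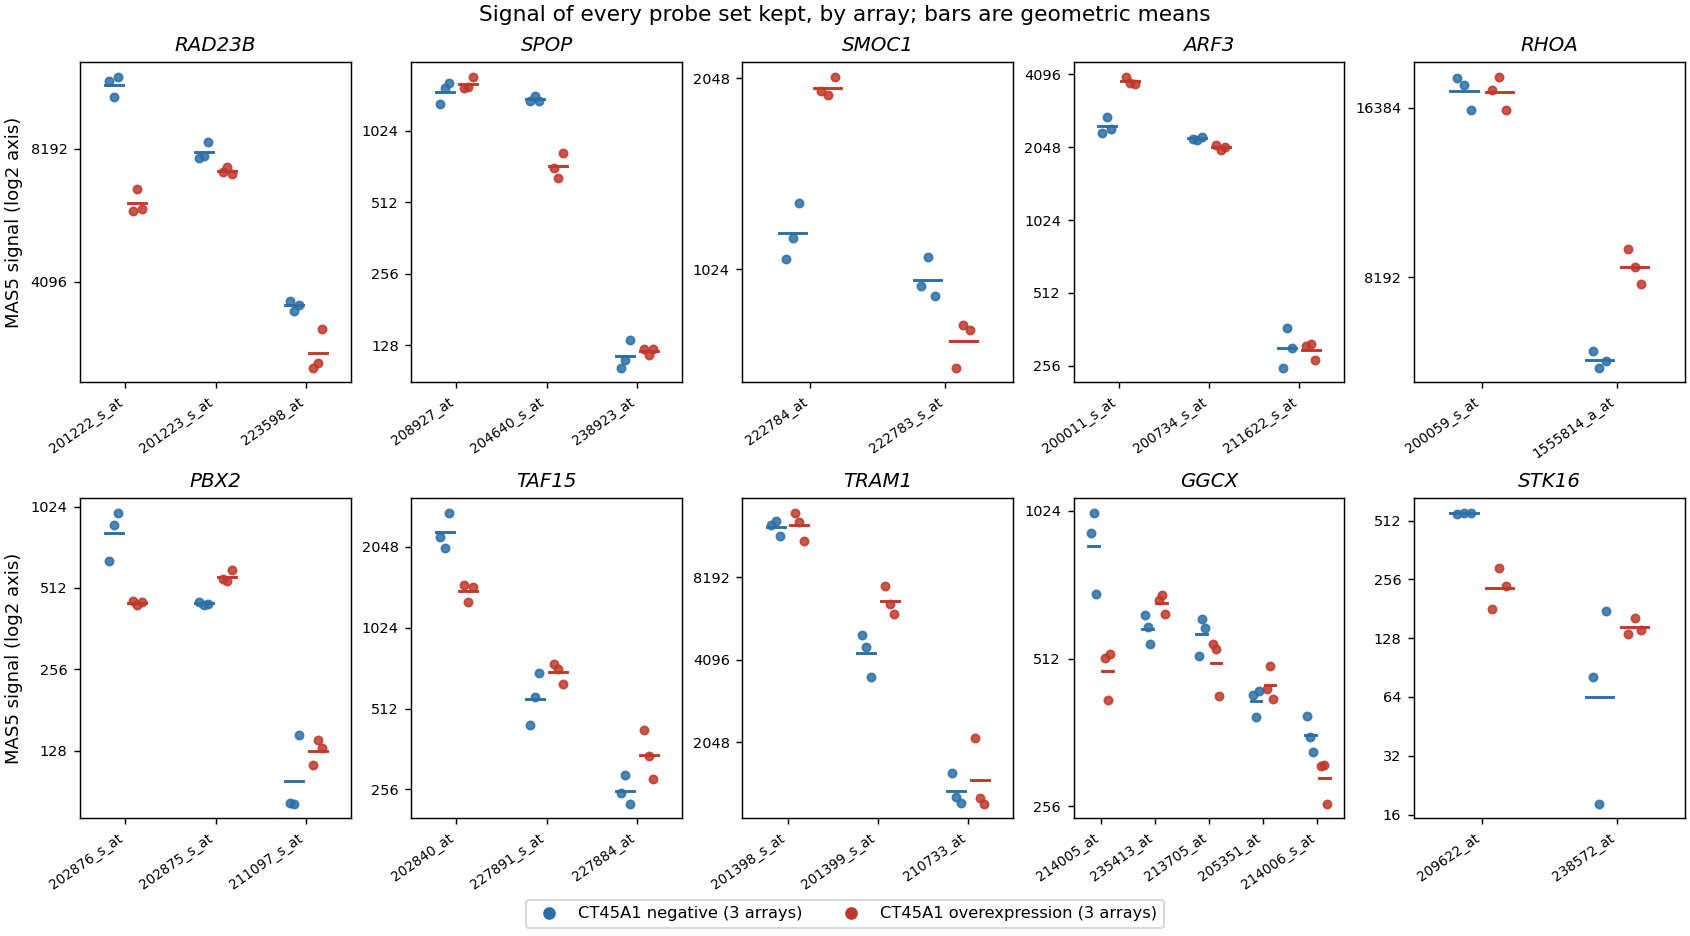
MAS5 signal on each array (log2 vertical axis, a panel per gene) for the 29 probe sets kept, with blue points for the 3 CT45A1 negative arrays, red points for the 3 overexpression arrays and bars at the geometric means. In each gene at least 1 probe set has the groups apart, and the shift is unlike that of another probe set of the gene.

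RAD23B and SPOP belong to the ubiquitin system. RAD23B carries ubiquitinated proteins to the proteasome and, bound to XPC, helps recognise damaged DNA in nucleotide excision repair. SPOP is the substrate adaptor of a CUL3 ubiquitin ligase. Both genes had 1 probe set far lower with CT45A1 and another that differed by at most 0.14 in size.

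At the RAD23B probe set 201222_s_at the signal was 5938, 6653 and 5989 on the overexpression arrays, against 11670.0, 10719.6 and 11924 on the negative arrays. All 3 overexpression arrays lay far below all negative arrays, and the mean log2 signal was 12.59 ± 0.091 and 13.48 ± 0.081 (SD, n = 3), a difference of -0.89 (SE 0.069) or 1.85-fold lower. At 201223_s_at, also ending in _s_at, the signal was 7241, 7456 and 7182 with CT45A1 and 7792, 7884 and 8505 without it. The groups were apart there too, but by only -0.14 (SE 0.060). The probe set 223598_at, with 2619, 2683 and 3205 against 3714, 3526 and 3641, lay between them at -0.36 (SE 0.085) without overlap, and the dim 214422_at had a mean log2 signal of 5.69. All 3 RAD23B probe sets kept thus ran downward, by unequal amounts.

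For SPOP the probe set 204640_s_at gave signals of 717, 648 and 825 with CT45A1 and 1365, 1434 and 1373 without it. The groups were wide apart, by -0.94 (SE 0.10) or 1.91-fold lower, and the negative arrays hardly varied (mean log2 10.44 ± 0.039, against 9.50 ± 0.18, SD, n = 3). At 208927_at the signal was 1551, 1561 and 1732, against 1330.3, 1545 and 1623 on the negative arrays. Here the groups overlapped, with a difference of 0.11 (SE 0.095). The third SPOP probe set, 238923_at, had signals of 103 to 134 on all 6 arrays and also overlapped, with a difference of 0.064 (SE 0.23).

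ARF3, RHOA and TRAM1 act in membrane traffic, the cytoskeleton and protein entry into the endoplasmic reticulum. ARF3 is a small GTPase of the Golgi that recruits vesicle coats, RHOA is the small GTPase that drives stress fibres and contractility through ROCK kinases, and TRAM1 helps nascent chains enter the membrane at the translocon. In each, 1 probe set was higher with CT45A1 and the others kept differed by at most 0.13 in size.

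The ARF3 probe set 200011_s_at had signals of 4005, 3786 and 3747 with CT45A1 and 2345, 2725 and 2431 without it. No array of one group reached the other, and the mean log2 signal was 11.91 ± 0.052 and 11.28 ± 0.11 (SD, n = 3), a difference of 0.62 (SE 0.076) or 1.54-fold higher. At 200734_s_at the order was turned, with 2098, 1996 and 2042 on the overexpression arrays and 2219, 2193 and 2262 on the negative arrays. That shift of -0.12 (SE 0.068) was small, though the groups did not overlap. The probe set 211622_s_at overlapped between the groups, from 251 to 365, with a difference of -0.027 (SE 0.16). All 3 ARF3 probe sets end in _s_at, so in this gene the suffix does not tell the shifted one from the rest.

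RHOA had a shifted and a flat probe set, both far above the array median. At 1555814_a_at, the only member ending in _a_at, signals were 9183, 8550.2 and 7980.3 with CT45A1 and 6058, 5653 and 5814 without it. Every overexpression array lay above every negative one, by 0.55 (SE 0.068) or 1.47-fold higher on the means. At 200059_s_at the signals were 17637, 18627 and 16256 against 18533, 18015 and 16272, and the groups overlapped throughout, with a difference of -0.008 (SE 0.070). The dim probe set 240337_at had signals of 6.14 to 26.0 on all arrays.

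The TRAM1 probe set 201399_s_at had signals of 7611, 6571 and 6000.3 on the overexpression arrays and 5025, 4568 and 3556 on the negative arrays. All 3 overexpression arrays lay above all negative ones, and replicate 3 was the lowest array of either group. The difference was 0.63 (SE 0.12) or 1.54-fold higher. At 201398_s_at the signals were 14115, 13063 and 11082 against 12735, 13123 and 11624, overlapping, with a difference of 0.024 (SE 0.088). The third probe set, 210733_at, also overlapped and differed by 0.13 (SE 0.19), with 1 overexpression array at 2114 and the other 5 arrays between 1219 and 1582.

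PBX2 and TAF15 act in the nucleus. PBX2 is a TALE homeodomain protein that binds DNA with HOX and MEIS partners, and TAF15 is an RNA-binding protein that can associate with the general transcription factor TFIID. Both had 1 probe set lower with CT45A1 and the others above 0.

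For PBX2, 202876_s_at gave 456, 443 and 455 with CT45A1 and 644, 874 and 972 without it. The overexpression arrays were tightly grouped below the widely spread negative ones (mean log2 8.82 ± 0.024 and 9.68 ± 0.31, SD, n = 3), and the difference was -0.86 (SE 0.15) or 1.81-fold lower. At 202875_s_at the signals were 552, 544 and 597 with CT45A1 and 455, 443 and 448 without it. That probe set ran the other way with no overlap, by 0.33 (SE 0.10). The probe set 211097_s_at, with signals of 81.3 to 147, differed by 0.36 (SE 0.29) with overlap, and the dim 211096_at had 45.0 to 86.9. The mean of the 3 differences was -0.055, so an average with equal weights would show almost no difference. That mean counts 211097_s_at, with the lowest signal and the largest SE of the 3, as much as the others.

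The TAF15 probe set 202840_at had signals of 1478, 1281 and 1457 on the overexpression arrays and 2236, 2035 and 2745 on the negative arrays. The groups were apart by -0.73 (SE 0.11) or 1.65-fold lower. At 227884_at the signals were 428, 342 and 281 with CT45A1 and 248, 289 and 226 without it, and at 227891_s_at they were 751, 717 and 634 and 444, 564 and 694. Both of these overlapped between the groups, with differences of 0.45 (SE 0.18) and 0.33 (SE 0.16), which became -0.07 and 0.59 in a fit that holds the actin ratio, and the dim 234168_at had 23.5 to 59.0. The mean of the 3 differences kept was 0.015.

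SMOC1 and GGCX belong to the secretory pathway. SMOC1 is a secreted calcium-binding matricellular protein that modulates BMP signalling, and GGCX is the enzyme of the endoplasmic reticulum that carboxylates glutamates of vitamin K dependent proteins. SMOC1 had its only 2 probe sets on opposite sides with no overlap at either, and GGCX had 1 of 5 probe sets far lower with CT45A1.

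At the SMOC1 probe set 222784_at the signal was 1953, 1927 and 2060.1 on the overexpression arrays, against 1063, 1148 and 1304 on the negative arrays. The overexpression arrays were all higher, with a mean log2 signal of 10.95 ± 0.051 against 10.19 ± 0.15 (SD, n = 3), a difference of 0.76 (SE 0.092) or 1.69-fold higher. At 222783_s_at the signals were 715, 836 and 821 with CT45A1 and 963, 1069 and 929.7 without it. Now the overexpression arrays were all lower, by 0.32 (SE 0.10) or 1.25-fold lower, and this probe set did not pass the threshold in the fit.

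For GGCX, 214005_at gave 513, 421 and 523 with CT45A1 and 924, 1016 and 695 without it. The groups did not overlap, and the difference was -0.84 (SE 0.15) or 1.79-fold lower. At 235413_at the overexpression arrays were higher, at 673, 690.1 and 631 against 627, 593 and 547, by 0.18 (SE 0.10) with a narrow gap of 631 to 627 between the groups. At 214006_s_at the signals were 309, 311 and 259 against 392, 354 and 330.0, lower in every overexpression array. The other 3 GGCX probe sets differed by -0.29 at 214006_s_at, -0.19 at 213705_at and 0.11 at 205351_at, with overlap at 213705_at and 205351_at. Of the 5, 3 lay below 0 and 2 above.

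STK16 is a membrane-anchored serine/threonine kinase of the Golgi, of the family of GAK, AAK1 and BMP2K. It had the widest separation of the 10 genes, and 1 of its 2 probe sets, though kept, had a low signal. At 209622_at the signals were 181, 293 and 237 with CT45A1 and 552, 563 and 560.4 without it. The negative arrays agreed closely (mean log2 9.13 ± 0.014, against 7.86 ± 0.35, SD, n = 3), and the overexpression arrays were all lower, by 1.26 (SE 0.17) or 2.40-fold lower. At 238572_at they were 134, 163 and 140.3 with CT45A1 and 81.2, 18.1 and 177 without it. Negative replicates 2 and 3 were the lowest and the highest of all 6 arrays there, so the groups overlapped, and the difference of 1.19 (SE 0.65) starts from a negative mean of 5.998 that lies below the array median of 6.20.

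**Figure D2:**
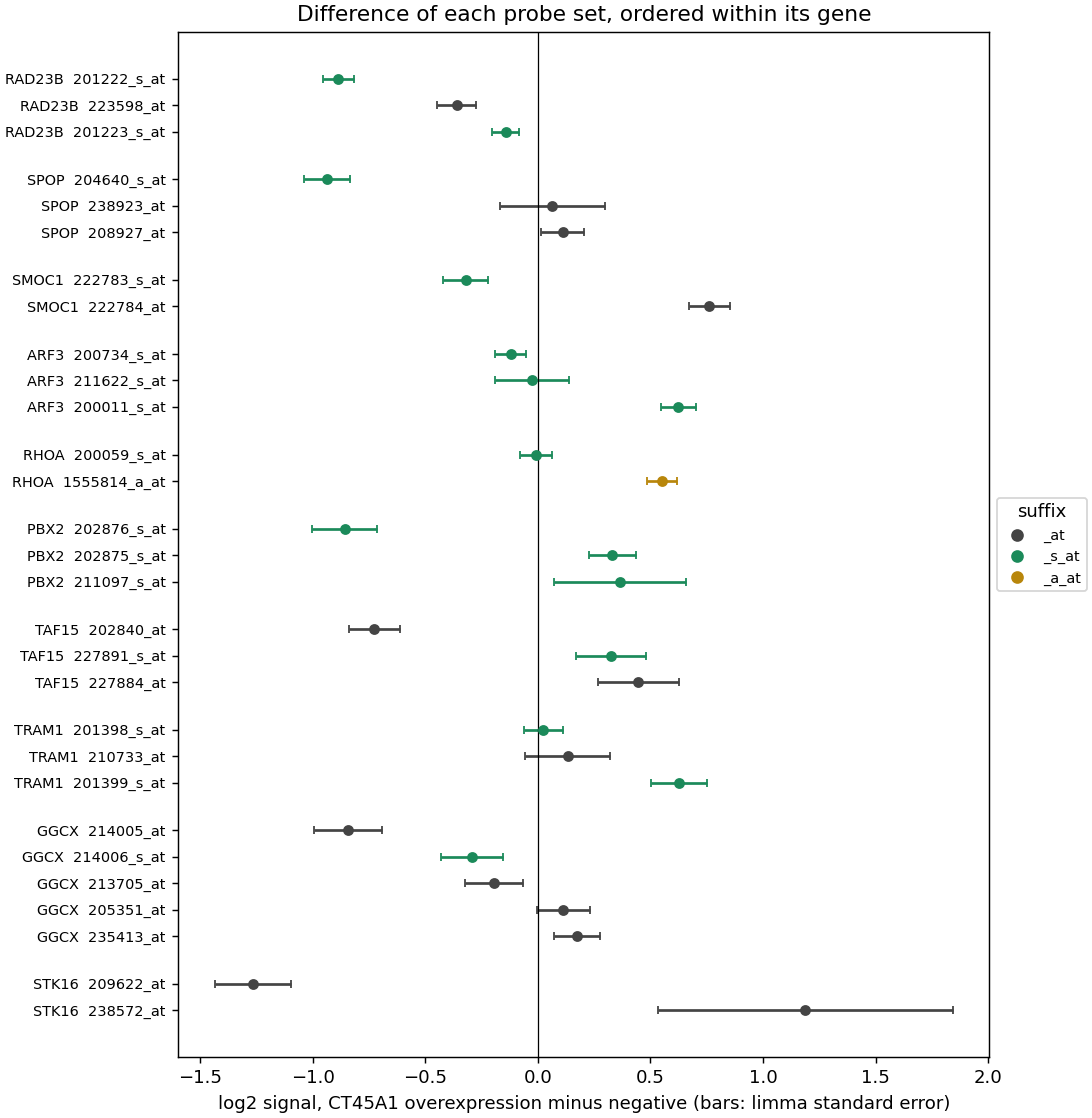
Difference of each of the 29 probe sets (horizontal axis, log2 signal, CT45A1 overexpression minus negative; points are differences of means over 3 arrays a group, bars limma's standard errors), ordered within its gene and coloured by suffix. STK16 runs from -1.26 to 1.19, while the 3 RAD23B probe sets are all below 0.

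The ratio of 2 probe sets of a gene on the same array does not depend on how arrays were scaled to each other, and centring on the array median, which turns the sign of 5 member probe sets that were not called (2 of SPOP, 2 of TRAM1 and 205351_at of GGCX), leaves it as it is. Its level has no meaning of its own because probes differ in brightness. For each gene the probe set with the highest difference was set over the one with the lowest, and the change of that log2 ratio between the groups is called the gap. In RAD23B the log2 ratio of 201223_s_at over 201222_s_at was 0.29, 0.16 and 0.26 on the overexpression arrays and -0.58, -0.44 and -0.49 on the negative ones. No array of one group came near the other, and the gap was 0.74 or 1.67-fold. In SPOP the ratio of 208927_at over 204640_s_at was 1.11, 1.27 and 1.07 with CT45A1 and -0.037, 0.11 and 0.24 without it, a gap of 1.05. In SMOC1 the ratio of 222784_at over 222783_s_at was 1.45, 1.20 and 1.33 against 0.14, 0.10 and 0.49, a gap of 1.08. In each of these 3 genes the spread within a group was small beside the distance between the groups.

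The gaps were 0.56 in RHOA, 0.60 in TRAM1, 0.74 in ARF3, 1.02 in GGCX, 1.17 in TAF15, 1.22 in PBX2 and 2.45 in STK16. The ratio arrays of the groups did not overlap in any of the 10 genes, which their selection favours. For ARF3 the ratio was 0.93, 0.92 and 0.88 with CT45A1 and 0.080, 0.31 and 0.10 without it, so the overexpression arrays were nearly equal. In STK16 it was -0.43, -0.84 and -0.76 and -2.77, -4.95 and -1.66, where negative replicate 2 stood far from the rest, and the gap was 1.54 without that array. Over the 6 fits that each left out an array, the gap lay between 0.52 and 0.61 in RHOA, between 0.98 and 1.12 in SPOP and between 1.03 and 1.38 in PBX2.

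Because the actin ratio was lower on all 3 overexpression arrays, each gap was also fitted with that ratio as a covariate, for the same pair of probe sets. The gap of that pair was then 0.32 in TAF15, 0.38 in TRAM1 and 4.63 in STK16, changes of more than 1.5 times in both directions. With the highest and lowest probe set chosen again in that fit, which was done after seeing the data, it was 0.98 in TAF15, 0.48 in TRAM1 and 4.63 in STK16. The sign of 3 member probe sets that were not called turned in that fit, at TAF15 227884_at to -0.07, at TRAM1 201398_s_at to -0.27 and at TRAM1 210733_at to -0.36. For the same pairs the other 7 genes had gaps between 0.60 (ARF3) and 1.81 (PBX2) in that fit, with RAD23B at 0.73. Whether RNA integrity had a part in the gaps was not tested further, since the ratio moves with the groups.

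**Figure D3:**
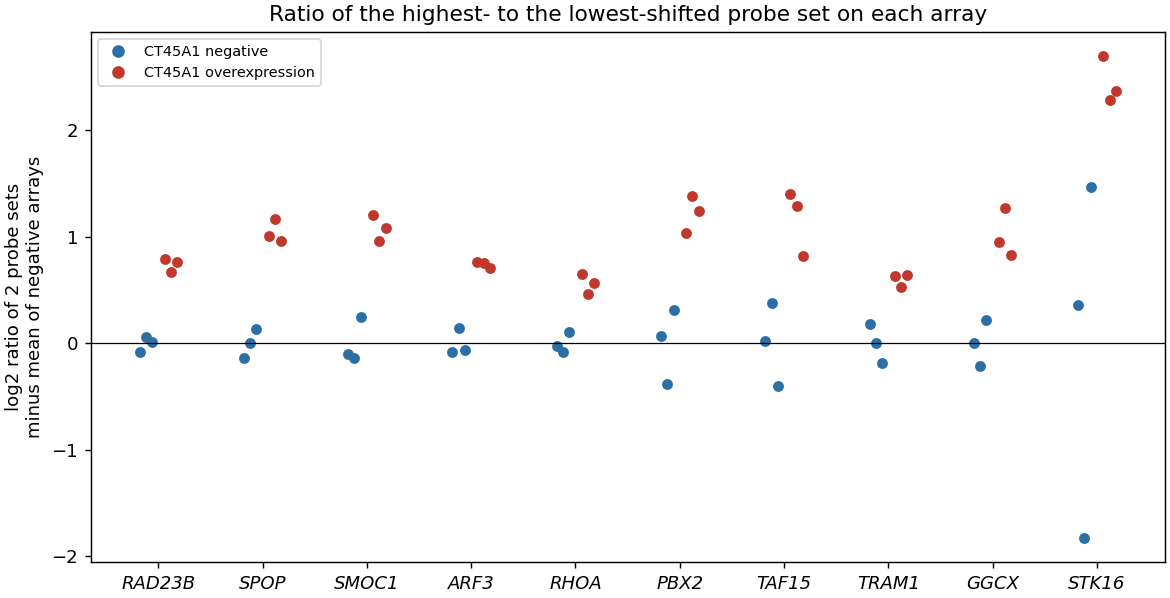
Log2 ratio of the probe set with the highest difference over the one with the lowest in each gene, a point per array, minus the mean of the 3 negative arrays (vertical axis, log2 units; blue negative, red overexpression). Red points lie above blue points in all 10 genes, and the blue points of STK16 spread far more than those of the other genes.

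The probe sets differ in the record they were designed on, which the selection did not use. Among the members, 7 genes have 1 probe set that the platform's annotation ties to a RefSeq mRNA. In 5 of these, SPOP, ARF3, PBX2, TAF15 and TRAM1, that probe set was the shifted one, lower in SPOP, PBX2 and TAF15 and higher in ARF3 and TRAM1. In RAD23B and GGCX it was not, with differences of -0.14 and 0.11. The shifts themselves were selected, and the share of such probe sets called over the whole array was not counted. Nothing is therefore read from 5 of 7. Suffix did not order the differences either, since the most shifted probe set ends in _s_at in RAD23B, SPOP, ARF3, PBX2 and TRAM1, in _at in SMOC1, TAF15, GGCX and STK16, and in _a_at in RHOA. Over the whole array, 3.98% of probe sets kept that name 1 gene and end in _s_at were called, 2.53% of those ending in _at and 3.75% of those ending in _a_at.

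How far the probe sets of a gene lie apart varied with signal. Over the 6035 genes with at least 2 probe sets kept, the median gap was 0.28 and the 90th percentile 0.72, but the median went down from 0.44 where the dimmest probe set had a mean log2 signal under 7 to 0.12 where it was at least 11. By all probe sets kept, STK16 ranked 6 in gap, PBX2 115, TAF15 132, SMOC1 184, SPOP 206, GGCX 225, ARF3 551, RAD23B 561, TRAM1 947 and RHOA 1104. The description of these genes as bright holds only in part. A mean log2 signal of at least 9 was reached by 20 of the 29 probe sets, and 8 of the 10 genes have at least 2 such probe sets, while PBX2 and STK16 do not. For the 2666 genes with at least 2 probe sets that bright, a gap was also taken over the bright probe sets alone. Its median was 0.16 and its 90th percentile 0.42. By that gap SMOC1 ranked 3, TAF15 4, SPOP 5, GGCX 6, ARF3 23, RAD23B 27, TRAM1 69 and RHOA 91. It leaves out 227884_at of TAF15, with a mean log2 signal of 8.21, which was in the pair used for the gap of TAF15 above. The selection set no threshold, and 1094 other genes had a gap over all probe sets at or above that of RHOA, the smallest among the members. CD44 lay just below it, and both gaps round to 0.56. Probe sets on both sides of 0 were found in 51.5% of the 6035 genes and in 8 of the 10 members.

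**Figure D4:**
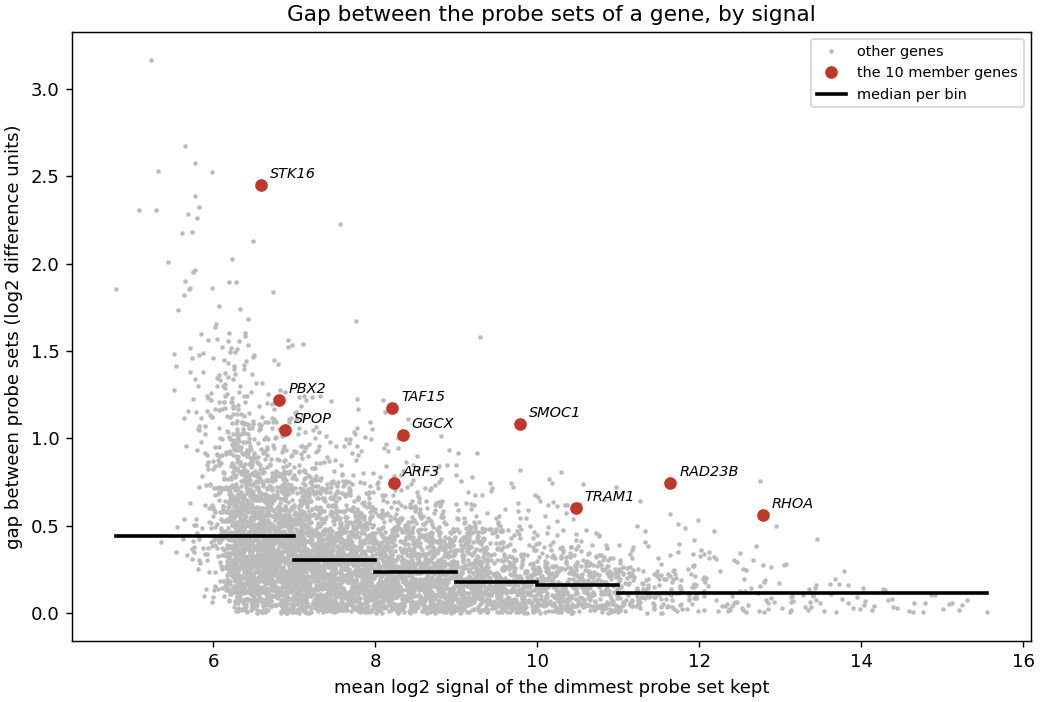
Gap between the probe sets of each of 6035 genes (vertical axis, log2 difference units) against the mean log2 signal of its dimmest probe set kept (horizontal axis), with grey points for other genes, red points for the 10 members and black lines for the median in each range of signal. The medians go down from 0.44 to 0.12 with signal, and STK16 stands at 2.45 on the dim side while RHOA stands at 0.56 among the brightest genes.

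Among other genes with opposite differences at bright probe sets, the 5 with the widest gap were MALAT1, MAP4, ZC3H7B, SMARCC1 and WWC1. MALAT1, a nuclear long noncoding RNA, had a gap of 1.58 over 12 bright probe sets, from -0.65 at 228582_x_at to 0.93 at 224559_at. At 224559_at the signals were 501, 3558 and 1332 with CT45A1 and 839.7, 619 and 665 without it, with overexpression replicate 2 far above the other 5 arrays and replicate 1 below them. MAP4, a microtubule-associated protein, had a gap of 0.997, from -0.46 to 0.54. SMARCC1, a core subunit of the SWI/SNF chromatin remodeller, had -0.82 (SE 0.090) at 201072_s_at and 0.097 (SE 0.077) at 201075_s_at, close to the values of SPOP. The gaps of ZC3H7B and WWC1, a scaffold of the Hippo pathway, were 0.93 and 0.88. The 2 genes on the array called in both directions were COL4A6, a basement membrane collagen chain, with 0.51 at 211473_s_at and -0.31 at 213992_at, and PTK2, the focal adhesion kinase, with 0.57 at 1559529_at and -0.58 at 241453_at. Their number was 12 after centring, 0 with the actin covariate, 1 without overexpression replicate 3 and 0 without any of the other 5 arrays.

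Genes that work with the members were listed by function, with earlier results of these data known, and were tested. Of 233 probe sets kept for 107 partner genes, 2 rose and 7 fell, or 3.86%, beside 3.23% of all probe sets kept, a share near the background. Their median absolute difference was 0.14, against 0.17 over all probe sets kept. The median difference of a list ran from -0.095 for the partners of RHOA to 0.28 for the PBX, MEIS and PREP proteins, beside 0.033 over all probe sets kept. An unadjusted p under 0.05 was reached by 56 or 24.0%, beside 20.7% of all probe sets kept. The 9 calls became 1, 3 and 5 without overexpression replicate 1, 2 or 3, and 2, 4 and 15 without negative replicate 1, 2 or 3. After centring each array on its median 44 passed, and without the variance trend in limma 0 did, with 45 at an unadjusted p under 0.05. At each of the 9 all 3 arrays of one group lay above all 3 of the other, which passing the threshold favours. The same held at 26.6% of all probe sets kept.

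Among the partners of RHOA, 4 of 37 probe sets fell and none rose. CDC42, the GTPase of filopodia and polarity, fell at 208728_s_at by 0.70 (SE 0.10, limma adjusted p = 0.00728), from signals of 1564, 1797 and 1554 to 900.2, 1078 and 1042. It also fell at 208727_s_at by 0.39 (SE 0.088, limma adjusted p = 0.0446), and its remaining probe set differed by -0.34, so its 3 probe sets ran one way. DIAPH1, a formin that RHOA activates, fell by 0.49 (SE 0.11, limma adjusted p = 0.0467) at 215541_s_at, while its other 2 probe sets differed by -0.095 and -0.034. The fourth was the GTPase RAC1, at 208640_at, with -0.33 (SE 0.068, limma adjusted p = 0.0322). The other RAC1 probe sets, none of them called, differed by -0.11 at 208641_s_at, where the groups overlapped, -0.21 at 1567458_s_at and -0.50 at 1567457_at. CDC42 at 208728_s_at passed in 12 of 14 alternative settings, its other called probe set in 5, DIAPH1 in 6 and RAC1 in 7.

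Among ubiquitin receptors and the XPC complex, 1 of 17 probe sets rose and 2 fell. UBQLN4, a ubiquilin that shuttles proteins to the proteasome, rose by 1.71 (SE 0.26, limma adjusted p = 0.01) at 222252_x_at, from signals of 179.9, 113 and 84.5 to 454, 329.8 and 403. The ending _x_at marks probes that can bind other transcripts, and the other UBQLN4 probe set differed by 0.042, so this gene resembled the members. UBQLN1, its relative, fell by 0.41 (SE 0.072, limma adjusted p = 0.0184) at 222991_s_at, with -0.24 and -0.16 at its others. PSMD4, a ubiquitin receptor of the proteasome, fell by 0.33 (SE 0.073, limma adjusted p = 0.0395), with -0.12 and 0.016 at its others, and passed in 4 of 14 alternatives. UBQLN4 passed in 10 of 13 and UBQLN1 in 8 of 14.

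NQO1, a quinone reductase counted with the vitamin K cycle, fell by 0.45 (SE 0.080, limma adjusted p = 0.0184) at 201468_s_at, 1 of 19 probe sets in that list, with 0.017 and 0.11 at its others. It passed in 9 of 14 alternatives. PBXIP1, which binds PBX proteins, rose by 0.61 (SE 0.13, limma adjusted p = 0.0347), 1 of 11 in its list, with 0.47 at its other probe set, and passed in 4 of 13. The lists for SPOP, SMOC1, ARF3, TRAM1 and STK16 had no call in limma. Unadjusted p-values under 0.05 were reached by 5 of 20 probe sets of CUL3 ligase adaptors and SPOP substrates, 4 of 20 of the SPARC family and BMP signalling and 7 of 31 of the ARF GTPases and their regulators. The same was reached by 9 of 49 of the translocation machinery and 1 of 8 of the STK16 relatives, beside 20.7% of all probe sets kept.

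The smallest p in each of those lists missed the threshold, though CUL3 passed in 4 of 14 alternatives, SMAD5 in 1, ARF6 in 6, SSR3 in 5 and BMP2K in 1. CUL3, the scaffold of the SPOP ligase, differed by -0.43 at 201370_s_at (limma adjusted p = 0.0589), with -0.059 at its other probe set. SMAD5, a BMP effector, differed by -0.36 at 235451_at (limma adjusted p = 0.0697), with -0.11 to 0.11 at its others. ARF6, an endosomal GTPase, differed by -0.37 at 203312_x_at (limma adjusted p = 0.0533), with -0.36 to -0.028 at its others. SSR3, a subunit of the translocon-associated complex, differed by -0.30 at 222411_s_at (limma adjusted p = 0.0585), with -0.27 to 0.12 at its others. BMP2K differed by -0.51 at 59644_at (limma adjusted p = 0.0769), with -0.32 to -0.097 at its others.

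**Figure D5:**
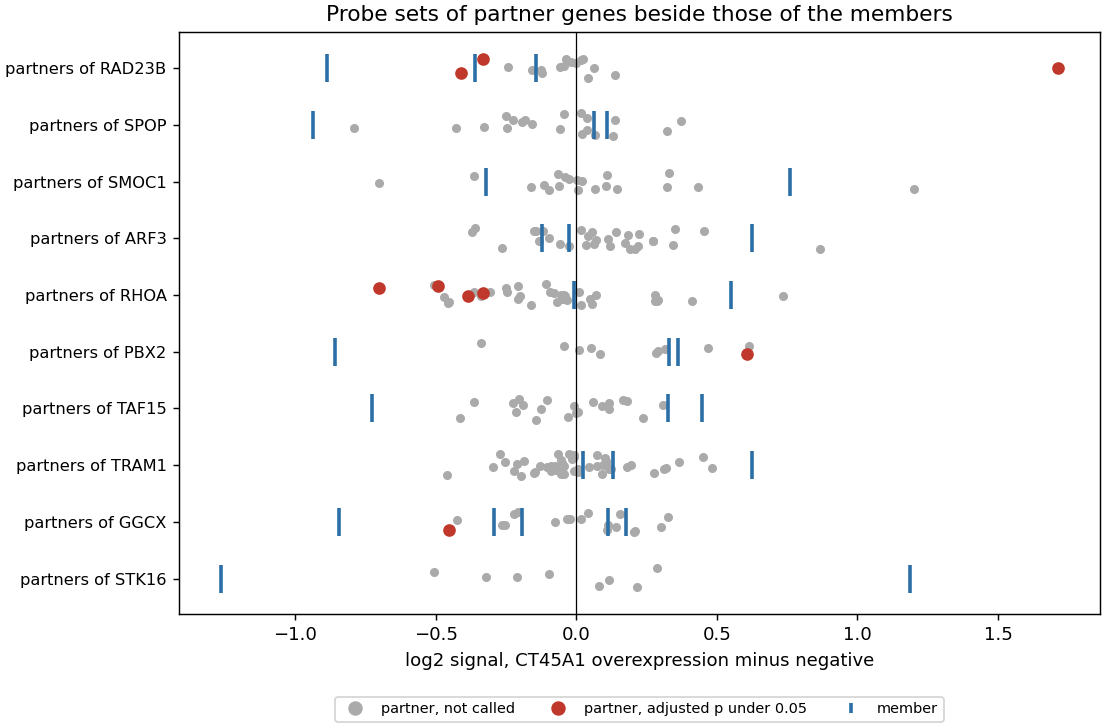
Difference of every probe set kept for the partner genes (horizontal axis, log2 signal, CT45A1 overexpression minus negative; a row per member), with grey points for probe sets not called, red points for the 9 with an adjusted p under 0.05 and blue bars for the member's own probe sets. The red points are 2 to the right and 7 to the left of 0.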

How the data were processed

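RNA of 6 arrays, 3 of CT45A1 overexpression and 3 of CT45A1 negative cells grouped by sample title, was amplified and labelled from the 3' end, as the labels' protocols state. The authors deposited an intensity per probe set, a MAS5 signal; per the submitters' processing notes the tools were MAS5 and affy, whose versions are not given there. Signals were taken to log2, the 62 control probe sets were left out, and probe sets above their array's median on at least 3 arrays were kept (27618). They were fitted with limma 3.58.1 in R 4.3.3 (1 mean per group, eBayes with trend), with Benjamini-Hochberg adjustment over all of them, two-sided at 0.05; tables used Python 3.11.15 and pandas 2.3.3. The fit was tested on simulated data. Each array had been scaled to a trimmed mean of 500.1, which left the mean log2 array median 0.145 higher in the overexpression group. Precision is limited by the number of arrays.

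Gene names came from the annotation of the platform (41091 with 1 symbol, 1801 with several, 11721 with none), with symbols updated through the RefSeq table of GRCh38.p14. No coordinates are printed, since no build is given in the sources used here. Members, partner lists and tests were chosen with earlier results of these data known. Named partners are up to 3 called probe sets a list, or else the one with the smallest p; RAC1, COL4A6 and PTK2 were named after their values were seen. The list for TAF15 is counted in the totals and not reported here on its own. Like genes are the 5 with the widest gap of opposite sign among probe sets with a mean log2 of at least 9. Alternatives were quantile normalization, centring, 2 other filters, an offset of 32, no variance trend, the actin ratio as a covariate, the replicate number as a block, leaving out each array and, chosen after seeing the data, the pair of probe sets picked again with the actin covariate.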

Additional observations from a re-analysis of the deposited data

How the results depend on the processing

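All 10 gaps kept their direction in the 11 alternatives run for each on the same pair of probe sets. Much of this was fixed beforehand. Centring and the replicate block cannot change a gap. Leaving out an array cannot turn one either, since the ratio arrays of the groups did not overlap in any of the 10 genes. Only quantile normalization, the offset and the actin covariate could have turned a gap, and none did. Gaps moved by more than the spread between arrays only in the fit that holds the actin ratio. There the gap was 1.19 in SPOP, 1.36 in SMOC1, 0.60 in ARF3, 0.67 in RHOA and 1.81 in PBX2. It was 0.32 in TAF15, 0.38 in TRAM1, 1.29 in GGCX and 4.63 in STK16. With the pair chosen again in that fit, an alternative chosen after seeing the data, it was 1.23 in SPOP, 0.69 in ARF3, 0.98 in TAF15, 0.48 in TRAM1 and 1.49 in GGCX, and the pair was the same in the other 5 genes. Leaving out each array gave gaps between 0.98 and 1.12 in SPOP, 1.01 and 1.20 in SMOC1, 0.70 and 0.82 in ARF3, 0.52 and 0.61 in RHOA, 1.03 and 1.38 in PBX2, 0.97 and 1.36 in TAF15, 0.51 and 0.69 in TRAM1, 0.89 and 1.13 in GGCX and 1.54 and 3.18 in STK16.

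Centring on the array median lowered every difference by 0.145 and left the gaps as they were. It turned the sign of 5 member probe sets, none of them called: SPOP 208927_at to -0.035 and 238923_at to -0.081, TRAM1 201398_s_at to -0.12 and 210733_at to -0.012, and GGCX 205351_at to -0.032. Quantile normalization turned that of 2, SPOP 238923_at and RHOA 200059_s_at, and the actin covariate that of 3, TAF15 227884_at (-0.07), TRAM1 201398_s_at (-0.27) and TRAM1 210733_at (-0.36). Leaving out single arrays turned that of TRAM1 201398_s_at and 210733_at, ARF3 211622_s_at, RHOA 200059_s_at and SPOP 238923_at, none of them called. The 892 probe sets called became 2975 after centring (387 higher and 2588 lower, against 522 and 370), 486 without a filter and 4 without the variance trend. Without overexpression replicate 1, 2 or 3 they were 221, 159 and 460, and without negative replicate 1, 2 or 3 they were 255, 401 and 1171. The 9 partner calls became 44 after centring, 4 without a filter and 0 without the trend, and lay between 1 and 15 when an array was left out. The 2 genes called in both directions became 12 after centring, 0 without a filter, without the trend or with the actin covariate, and 0 to 1 without single arrays. The causes were not tested.

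The replicate numbers were treated as shared names only, and whether same-numbered arrays were handled together is not known. Deviations of same-numbered arrays from their group means correlated at -0.011, -0.0068 and 0.10. Those of differently numbered arrays ran from -0.10 to 0.11. With 3 arrays a group these correlations cannot settle whether the arrays were paired. With the replicate block 1189 probe sets and 11 partner probe sets were called, against 892 and 9 without it. The gaps were the same, which a balanced block fixes beforehand.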
